A study of Mus musculus with 24 samples.

Results

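The genes described here are Nfe2l2, which encodes the transcription factor NRF2, 2 genes that hold it in check (Keap1 and Bach1) and 7 of its classical target genes (Hmox1, Nqo1, Gclc, Gclm, Txnrd1, Slc7a11 and Srxn1). They were taken as the rows of the read count table whose gene symbol equals one of these 10 names, so 10 of the 24091 genes in the table are members. All 10 passed the filter on low counts, as did 13520 genes in all. RNA was sequenced from LSKs (Lin-Sca-1+c-Kit+ cells, the bone marrow fraction that holds the blood stem cells and the earliest progenitors) of 24 mice on the C57BL/6 background, 6 in each of 4 groups, and each group held 3 females and 3 males. These numbers are those of the labels, and the methods of the study give a smaller number of mice per group. The WT mice carried intact miR-142 and no BCR-ABL, and the miR-142 KO mice lacked both copies of miR-142. The CP CML mice carried the BCR-ABL transgene with intact miR-142 and model the chronic phase of chronic myeloid leukemia, and the BC CML mice carried the same transgene and lacked both copies of miR-142, the model of blast crisis. BCR-ABL was under the control of the SCL enhancer through a tetracycline-off switch, and the leukemic LSKs were sorted 2 weeks after tetracycline was withdrawn. The ages of the mice are not given in the sources used here. The question the comparisons address is whether loss of miR-142, alone or on top of BCR-ABL, goes with a change in the NRF2 genes. In the study, loss of miR-142 was linked to PKCα, which stabilises the NRF2 protein, and to NRF2 driven transcription. The study names HO-1, encoded by Hmox1, and NQO-1 among the genes that NRF2 activates in LSKs of the BC CML mice.

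NRF2 is the main inducible activator of the antioxidant response. In resting cells KEAP1 binds NRF2 in the cytoplasm and hands it to a CUL3 ubiquitin ligase, so that the protein is destroyed as fast as it is made. Oxidants and electrophiles modify KEAP1, NRF2 then accumulates, pairs with a small MAF protein in the nucleus and binds antioxidant response elements (AREs), and BACH1 is a heme-regulated repressor that occupies the same elements. Because this control acts on the protein, the level of Nfe2l2 mRNA is not a measure of NRF2 activity. In blood stem cells the pathway is known for its part in stem cell maintenance and in the handling of reactive oxygen species.

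The libraries held between 16267965 and 24687077 counted reads. The Mir142 row, which checks the labels, had 94 to 127 reads in WT and 68 to 153 in CP CML libraries and 0 in all 12 miR-142 KO and BC CML libraries. All 4 groups expressed Kit and Ly6a (Sca-1), the genes of the sort gate, and Cd34, Gata2 and Meis1 of stem and progenitor cells, at a summed level between 2236 and 3203 CPM (the read count divided by the library total and multiplied by 1000000). Their levels were not alike between groups. In BC CML against CP CML Ly6a rose 2.13-fold, and Kit (0.728-fold) and Meis1 (0.854-fold) fell. In KO against WT Ly6a (2.21-fold) and Gata2 (1.47-fold) rose and Meis1 (0.813-fold) fell. Some libraries stood apart. WT replicate 3 had a summed level of 10 macrophage markers of 1373 CPM against 74.6 to 262 in the other WT libraries. MiR-142 KO replicate 3 had the lowest erythroid sum (6.46 CPM) and the lowest macrophage sum (14.8 CPM) of its group, and its log2 CPM profile correlated no better with its own group (median r = 0.970) than with the nearest library of another group (r = 0.971). Neutrophil markers (10 genes) summed to 1325 to 4921 CPM in WT and 2513 to 7502 in KO, where 9 of 10 rose and none fell. Megakaryocyte markers (10 genes) summed to 281 to 411 and 219 to 678 CPM, where 6 of 9 tested rose and 1 fell. Over all genes 36.3% passed in KO against WT. B lineage and plasma cell markers summed to 74.6 to 1018 CPM in WT against 26.5 to 43.2 in KO, and to 173 to 805 in CP CML against 26.5 to 39.1 in BC CML, without overlap in either pair. Of the 8 tested, 3 and 4 fell and none rose, where 36.3% and 38.0% of all genes passed. Their part in the miR-142 comparisons below was not tested. The 3 male CP CML libraries had macrophage sums of 456 to 616 CPM against 86.9 to 118 in the 3 females. Without WT replicate 3 and KO replicate 3 together, an alternative added after the data were seen, 7 members passed in BC CML against CP CML (Bach1 and Txnrd1 in addition) and 8 in KO against WT (Txnrd1 in addition), in place of 5 and 7. Over all genes 5685 and 4716 passed in that fit, in place of 5137 and 4907. The labels do not say whether mice were littermates or which libraries were made together.

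The microRNA that was deleted is printed first, because its absence defines both comparisons below. Both mature strands of Mir142 lie on mouse chromosome 11 (RefSeq, build GRCm38.p6, plus strand, chr11:87756867-87756887 for the 5p strand and chr11:87756903-87756925 for the 3p strand), and capitals mark the seed, bases 2 to 8.
mmu-miR-142a-5p: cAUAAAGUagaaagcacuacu
mmu-miR-142a-3p: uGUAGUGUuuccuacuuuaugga
The complement of each seed was searched in the longest annotated 3′ UTR of each member (GENCODE, build GRCm38). Of the 10 members, 3 held the 7 bases that pair with the 5p seed, ACTTTAT, and 2 held those that pair with the 3p seed, ACACTAC. Over the 12610 tested genes with an annotated 3′ UTR these shares were 15.8% and 6.92%. In the sites printed here capitals mark the 7 bases.
Nfe2l2, 5p seed match, chr2:75675872-75675878, minus strand: atgcagaaacACTTTATaagtaactat
Bach1, 5p seed match, chr16:87731211-87731217, plus strand: agggtataggACTTTATtaaggcttgg
Bach1, first 3p seed match, chr16:87731533-87731539, plus strand: gagtgagtgcACACTACcctgtgtagc
Bach1, second 3p seed match, chr16:87732290-87732296, plus strand: acaagtaactACACTACctcatacaca
Slc7a11, 5p seed match, chr3:50368168-50368174, minus strand: gactcaagaaACTTTATtttatttgaa
Slc7a11, 3p seed match, chr3:50367228-50367234, minus strand: actcgcatacACACTACagatttttag
The Nfe2l2 match lies in a 3′ UTR of 448 bases, and of the 1231 tested genes with a 3′ UTR of like length, 4.47% held the same 7 bases. The 3′ UTRs of Bach1 (3475 bases) and Slc7a11 (7364 bases) are long, and 30.9% and 59.4% of genes with 3′ UTRs of like length held the 5p match. For the 3p match these shares were 13.5% and 27.7%. A match of 7 bases is a description of the sequence and does not show that the microRNA acts there.

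The 10 genes did not move as a block. In BC CML against CP CML LSKs 4 members rose (Nfe2l2, Keap1, Gclm and Slc7a11) and 1 fell (Hmox1), and 5 did not pass the test, edgeR's quasi-likelihood test fitted across all 24 libraries with Benjamini-Hochberg adjustment over the 13520 genes tested and a threshold of 0.05. That is 5 of 10 members where 38.0% of all genes tested passed. The study reports far fewer differentially expressed genes for this comparison, by edgeR's likelihood ratio test at the same threshold. Here 5042 genes passed by that test and 5137 in the main fit, and the reason for the difference was not examined. In miR-142 KO against WT LSKs the same 4 genes rose together with Gclc, and Hmox1 and Nqo1 fell, 7 of 10 members against a background of 36.3%. In CP CML against WT 4 rose (Nfe2l2, Gclc, Txnrd1 and Slc7a11) and Nqo1 fell, against 45.4% of all genes, and in BC CML against miR-142 KO 4 rose (Nfe2l2, Gclm, Txnrd1 and Slc7a11) and 3 fell (Bach1, Nqo1 and Gclc), against 39.6%. The median log2 fold change over the 10 members was 0.04 in BC CML against CP CML and 0.09 in miR-142 KO against WT, with medians over all genes of 0.01 and 0.01. Each group enters more than 1 of these comparisons. BC CML against CP CML and KO against WT have no library in common, and neither do CP CML against WT and BC CML against KO, while every other pair of these comparisons shares a group of libraries. In bulk RNA, fewer cells of a type and less RNA per cell cannot be told apart. Between females and males 0 of the 10 members passed the test with the groups in the model (background 0.651%), also by edgeR's likelihood ratio test, and 2 members, Keap1 and Bach1, had an unadjusted p under 0.05. That model holds 1 sex effect shared by all groups, so a sex difference within a single group was not tested.

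**Figure D1:**
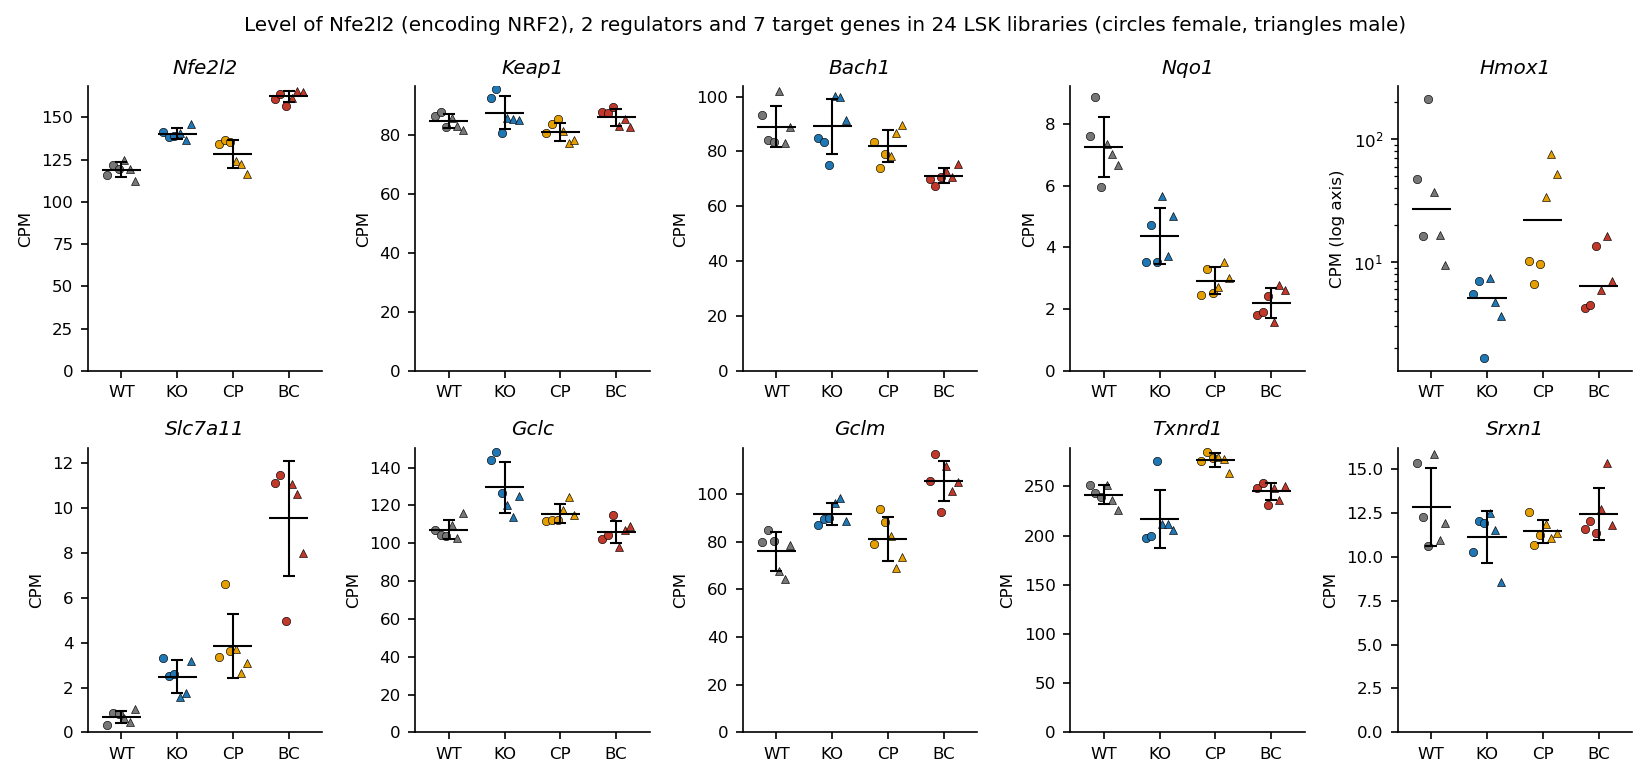
CPM of each of the 10 genes in each library, by group (WT, miR-142 KO, CP CML, BC CML), with circles for females and triangles for males. Bars give the mean ± SD of 6 libraries, except for Hmox1, which has a log axis and a bar at the median. Nfe2l2 and Slc7a11 are highest in BC CML, Nqo1 is highest in WT, and Hmox1 spreads from 1.66 to 214 CPM.

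Nfe2l2 rose with miR-142 loss in both settings. It lies on chr2:75675513-75704663 (mm10, minus strand). Its level was 116, 122, 120, 125, 119 and 112 CPM in the WT libraries, 141, 139, 139, 141, 137 and 146 in miR-142 KO, 134, 136, 136, 124, 122 and 117 in CP CML, and 161, 164, 157, 162, 166 and 165 in BC CML, with replicates 1 to 3 female and 4 to 6 male. The BC CML values lay above every other library, and the KO values lay above every WT value. The CP CML males (117 to 124 CPM) lay within the WT range, and the CP CML females (134 to 136 CPM) lay above it. The mean ± SD was 119 ± 4.37, 140.5 ± 3.17, 128 ± 8.24 and 162 ± 3.26 CPM (n = 6 each). The log2 fold change was 0.41 ± 0.04 (SE, adjusted p = 1.15e-07) in BC CML against CP CML, a 1.33-fold difference, and 0.31 ± 0.04 (adjusted p = 5.04e-06) in KO against WT, 1.24-fold. In the order WT, CP CML, KO, BC CML each neighbouring pair differed in the fit, by 0.16 ± 0.04 between CP CML and WT (adjusted p = 0.00329), by -0.15 ± 0.04 for CP CML against KO (adjusted p = 0.00942) and by 0.26 ± 0.04 between BC CML and KO (adjusted p = 6.73e-05). For reference, 36.6% of genes passed in CP CML against KO. The miR-142 effect on Nfe2l2 was 0.10 ± 0.06 larger on the log2 scale with BCR-ABL than without, and this difference did not pass the test (adjusted p = 0.389). The genes whose deviations from their group means were most like those of Nfe2l2 over the 24 libraries were Smg8 (r = 0.81), Fadd (r = 0.81) and Abcb6 (r = 0.77), given as a description across libraries that also differ in cell makeup.

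Keap1 and Bach1 moved little. Keap1, the cytoplasmic inhibitor (chr9:21229730-21239332, minus strand), ranged over 81.7 to 87.7 CPM in WT, 80.4 to 95.5 in KO, 77.05 to 85.2 in the CP CML mice and 82.5 to 89.2 in the BC CML mice, and all groups overlapped. Its log2 fold change was 0.15 ± 0.04 (adjusted p = 0.00503) in BC CML against CP CML and 0.12 ± 0.04 (adjusted p = 0.0234) in KO against WT. Both calls were lost when libraries were scaled by their totals alone (0.08, adjusted p = 0.0994, and 0.05, adjusted p = 0.341). That in KO against WT was also lost with upper quartile scaling (0.07, adjusted p = 0.183) and with the 12 libraries compared alone (0.11, adjusted p = 0.0825). Its value in BC CML against KO was 0.03 (adjusted p = 0.635) and turned negative with upper quartile scaling and library totals, and in CP CML against WT it was -0.00 (adjusted p = 0.931) and turned positive with a filter of 1 CPM. An antisense gene overlaps Keap1, and whether the counting used strand is not given in the sources used here. Bach1, the competing repressor (chr16:87698954-87733346, plus strand), had medians of 86.4, 88.1, 81.3 and 70.7 CPM in WT, KO, CP CML and BC CML. The BC CML libraries (67.2 to 75.5 CPM) lay below every WT library and overlapped both other groups. Bach1 fell by 0.27 ± 0.06 on the log2 scale in BC CML against KO (adjusted p = 0.00119) and was -0.14 ± 0.06 in BC CML against CP CML (adjusted p = 0.0744). There it passed the test with sex in the model (adjusted p = 0.0340), with upper quartile scaling, with library totals, with a filter of 1 CPM in 6 samples, with the 12 libraries alone, without CP CML replicate 2 or BC CML replicate 6, and without WT replicate 3 and KO replicate 3 together (adjusted p = 0.0317). Its deviations and those of the summed mast cell and basophil markers, which were highest in BC CML, correlated with r = -0.55 over 24 libraries and -0.69 over the 22 without WT replicate 3 and KO replicate 3, and their part was not tested. In KO against WT its log2 fold change was 0.07 ± 0.06 (adjusted p = 0.374).

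Among the cystine and glutathione genes Slc7a11 and Gclm rose in both comparisons. SLC7A11 is the cystine importer of system xc-, and GCLC and GCLM are the catalytic and modifier subunits of glutamate-cysteine ligase, the first step of glutathione synthesis. Slc7a11 (chr3:50364936-50443613, minus strand) was low in every group: its level had a lowest, median and highest value of 0.348, 0.738 and 1.05 CPM in WT, 1.56, 2.55 and 3.32 in KO, 2.67, 3.51 and 6.62 in CP CML, and 4.95, 10.9 and 11.5 in BC CML. These are 8 to 23 reads a library in WT and 100 to 281 in BC CML. In the annotation used for overlaps Slc7a11 has a longer span (chr3:49892526-50443614), which 5 other genes overlap, some on its strand. Whether they share reads with the counted span was not examined. KO, CP CML and BC CML each lay above WT without overlap, and 1 BC CML library (4.95 CPM) fell within the CP CML range. Slc7a11 rose 2.59-fold in BC CML against CP CML (log2 fold change 1.37 ± 0.26, adjusted p = 1.95e-04), 3.69-fold in KO against WT (1.88 ± 0.29, adjusted p = 2.45e-05) and 5.67-fold in CP CML against WT (2.50 ± 0.29, adjusted p = 8.25e-07). KO and CP CML, neighbours in the order, did not differ beyond the threshold (0.62 ± 0.26, adjusted p = 0.0670). The fitted difference between BC CML and WT was 14.7-fold (log2 3.87 ± 0.30, adjusted p = 2.33e-10), in a comparison where 65.0% of genes passed. Markers of mast cells and basophils moved with it. The summed level of 10 such markers was 107 to 651 CPM in WT, 380 to 3185 in KO, 2355 to 4833 in the CP CML mice and 6361 to 13152 in the BC CML mice, with none at 0 in any library. Of these markers 7 of 10 rose and none fell in each of BC CML against CP CML and KO against WT, where 38.0% and 36.3% of all genes passed. The deviations of Slc7a11 and of the marker sum correlated with r = 0.57 over 24 libraries. Their part in the Slc7a11 result was not tested.

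Gclm (chr3:122245557-122267215, plus strand) rose with Nfe2l2 in both comparisons. Its lowest, median and highest values were 64.2, 79.4 and 84.8 CPM in WT, 87.2, 89.9 and 98.6 in KO, 69.002, 80.8 and 94.0 in CP CML, and 92.7, 105 and 117 in BC CML. KO lay wholly above WT, and BC CML overlapped CP CML in its lowest library only. The log2 fold change was 0.45 ± 0.08 (adjusted p = 1.09e-04) in BC CML against CP CML and 0.34 ± 0.08 (adjusted p = 0.00160) in KO against WT, and CP CML did not differ from WT beyond the threshold (0.15 ± 0.08, adjusted p = 0.121). Its deviations and those of the summed neutrophil markers correlated with r = 0.48 over 24 libraries and 0.72 over the 22 without WT replicate 3 and KO replicate 3. Of these markers 9 of 10 rose in KO against WT, and 3 rose and 1 fell in BC CML against CP CML, where 36.3% and 38.0% of all genes passed. The part of these markers was not tested. The annotation places a further transcript and a transcribed pseudogene within the span of Gclm, so that some of its reads may be shared.

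Gclc (chr9:77754535-77794489, plus strand), the other subunit, went a different way in the leukemic mice. Its values were 103 to 116 CPM in WT, 114 to 148 in KO, 112 to 125 in the CP CML mice and 98.0 to 115 in the BC CML mice. The lowest KO library (114 CPM) fell within the WT and BC CML ranges, and the other KO libraries lay above both groups. Gclc rose by 0.34 ± 0.05 on the log2 scale in KO against WT (adjusted p = 3.02e-05) and was -0.06 ± 0.05 in BC CML against CP CML (adjusted p = 0.404). The difference between these effects was -0.40 ± 0.08 (adjusted p = 0.00449), and Gclc was the only 1 of the 10 members to pass this test, which 3.99% of all genes passed. It stayed between -0.47 and -0.39 with any of the 24 libraries left out, at adjusted p of 0.00888 or less. CP CML exceeded WT by 0.16 ± 0.05 (adjusted p = 0.0180), a call lost with upper quartile scaling (adjusted p = 0.0698) and with library totals (adjusted p = 0.113).

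Promoters are shown for Slc7a11 and Gclm, which rose in both comparisons, and for Nqo1, which fell in KO. The sequences are RefSeq's (build GRCm38.p6), from 250 bases before to 50 bases after the annotated start and read along the gene, and an entry was found for 8 of the 10 members, not for Gclc and Hmox1. Both forms of the ARE core, TGACNNNGC and TGAGNNNGC, and the ATF4-type element TGATGNAA were searched on both strands, where N is any base, and capitals mark each match.
Slc7a11, chr3:50443564-50443863, minus strand: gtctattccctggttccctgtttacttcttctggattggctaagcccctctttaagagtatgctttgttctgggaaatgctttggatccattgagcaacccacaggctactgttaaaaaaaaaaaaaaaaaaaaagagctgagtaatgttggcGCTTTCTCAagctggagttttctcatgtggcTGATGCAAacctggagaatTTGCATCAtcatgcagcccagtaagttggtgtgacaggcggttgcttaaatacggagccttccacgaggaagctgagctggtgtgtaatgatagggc
Gclm, chr3:122245307-122245606, plus strand: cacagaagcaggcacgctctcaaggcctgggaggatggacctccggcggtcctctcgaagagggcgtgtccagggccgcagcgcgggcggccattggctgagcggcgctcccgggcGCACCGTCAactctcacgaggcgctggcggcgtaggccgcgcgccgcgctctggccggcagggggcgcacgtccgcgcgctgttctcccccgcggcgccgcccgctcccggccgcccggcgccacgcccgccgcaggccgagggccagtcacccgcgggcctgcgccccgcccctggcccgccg
Nqo1, chr8:107403156-107403455, minus strand: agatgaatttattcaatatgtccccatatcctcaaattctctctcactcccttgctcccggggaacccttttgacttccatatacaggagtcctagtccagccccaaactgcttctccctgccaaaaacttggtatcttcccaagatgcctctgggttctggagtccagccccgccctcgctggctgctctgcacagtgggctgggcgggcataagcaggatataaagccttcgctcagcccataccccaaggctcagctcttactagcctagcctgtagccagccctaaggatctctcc
An ARE core of either form was present for 5 of the 8 members (Nfe2l2, Gclm, Txnrd1, Slc7a11 and Srxn1), counting any start of a gene. With each start counted once, 27.8% of all 32851 promoters in the table held it and so did 31.3% of the 13288 promoters of tested genes. Slc7a11 also held the ATF4-type element on each strand, which 3.97% of all promoters and 2.33% of those of tested genes held on at least 1 strand, and no matches overlapped. Srxn1, which held 3 ARE cores, did not pass the test in any of the comparisons, and Nqo1 held none in this window. The matches in Nfe2l2, Txnrd1 and Srxn1 are given with 10 bases on either side where the window allows.
Nfe2l2, chr2:75704895-75704903, minus strand: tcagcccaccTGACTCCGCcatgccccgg
Txnrd1, chr10:82859114-82859122, plus strand: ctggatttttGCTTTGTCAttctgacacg
Srxn1, chr2:152105366-152105374, plus strand: tctactgagaGCCGACTCAtcctctctgg
Srxn1, chr2:152105479-152105487, plus strand: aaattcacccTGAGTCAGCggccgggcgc
Srxn1, chr2:152105552-152105560, plus strand: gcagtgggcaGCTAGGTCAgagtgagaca
The core letters in capitals are common in promoters of this length, and neither a match nor its lack says whether NRF2 binds there in LSKs.

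**Figure D2:**
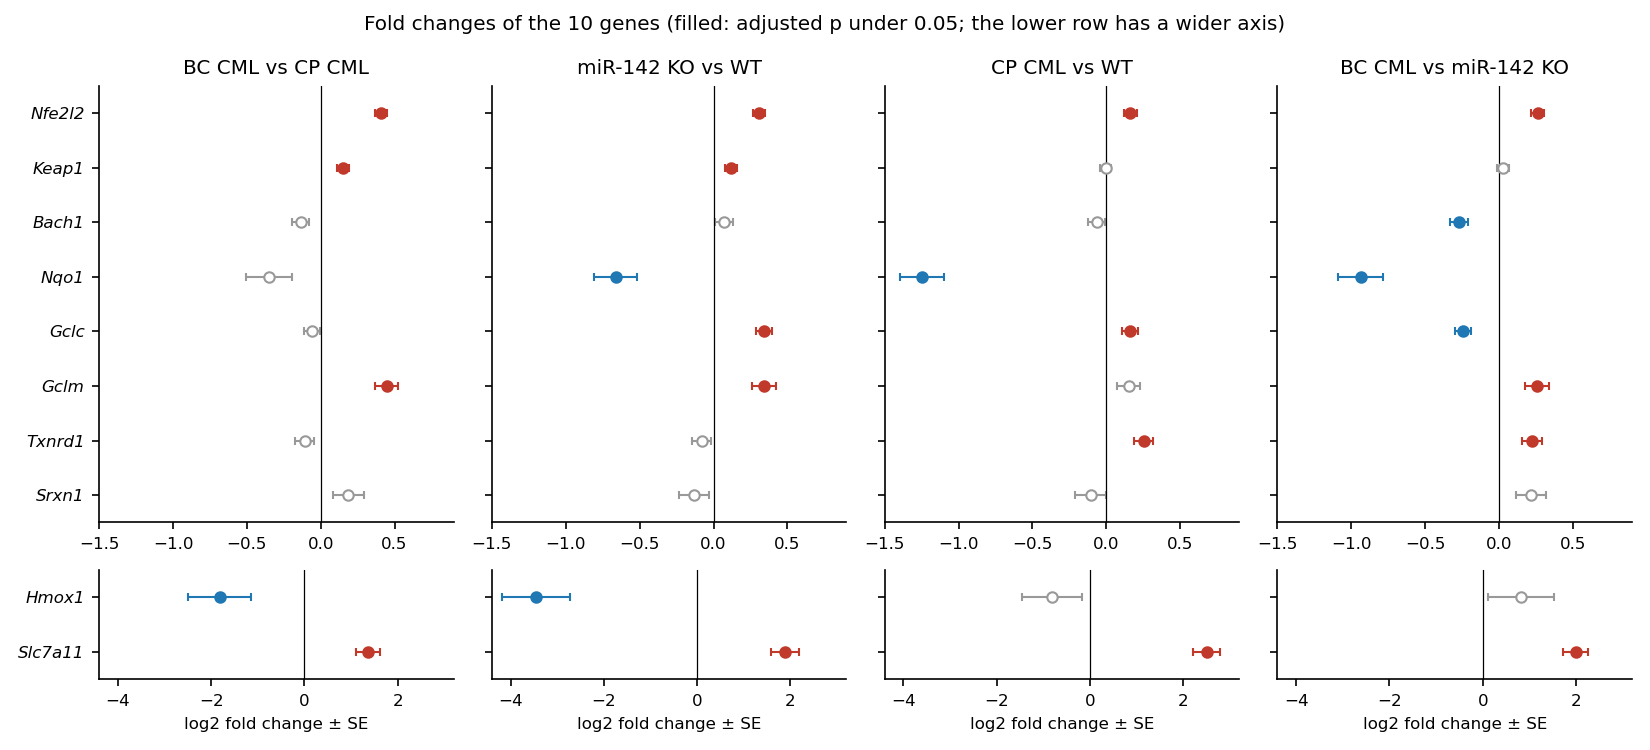
Log2 fold change of each of the 10 genes in the 4 comparisons, with bars for the SE. Filled red points rose and filled blue points fell at an adjusted p under 0.05, open points did not pass, and Hmox1 and Slc7a11 are drawn on a wider axis. Nfe2l2 and Slc7a11 lie to the right of 0 in all 4 panels and Nqo1 lies to the left in all 4, where its BC CML against CP CML value did not pass.

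Nqo1 was highest in WT and fell in every comparison but BC CML against CP CML. NQO1 is a quinone reductase and a standard readout of NRF2 activity. The study reports that NRF2 activates NQO-1 and HO-1 in BC CML LSKs compared with CP CML LSKs. It also reports that a miR-142 mimic lowered the expression of both. The text used here does not say whether RNA or protein was measured there. Nqo1 (chr8:107388225-107403205, minus strand) had a lowest, median and highest value of 5.96, 7.19 and 8.86 CPM in WT, 3.53, 4.22 and 5.67 in KO, 2.46, 2.86 and 3.51 in CP CML, and 1.60, 2.17 and 2.79 in BC CML. WT did not overlap any other group, KO lay above both leukemic groups, and CP CML and BC CML overlapped. It fell by 0.66 ± 0.15 on the log2 scale in KO against WT (adjusted p = 0.00107), by 1.249 ± 0.15 in CP CML against WT (adjusted p = 1.16e-06) and by 0.94 ± 0.15 in BC CML against KO (adjusted p = 6.90e-05). In BC CML against CP CML it was -0.35 ± 0.15 (adjusted p = 0.0747), a value that passed the test without CP CML replicate 1 (adjusted p = 0.0499), BC CML replicate 5 (0.0352) or BC CML replicate 6 (0.0437) and with library totals (0.0412). These are at most 192 reads a library in WT and 37 to 67 in BC CML. Its nearest genes by deviation were Casc4 (r = 0.82), Rhobtb3 (r = 0.80) and Ralgps2 (r = 0.79). Its deviations correlated with the summed megakaryocyte markers at r = 0.54 and with the summed erythroid markers at r = 0.49. The part of either was not tested.

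Hmox1 fell in both comparisons, with a wide spread between libraries of a group. HMOX1 degrades heme, is induced by NRF2 and is released from BACH1 by heme, and is a high-abundance product of macrophages that clear red cells. Hmox1 (chr8:75093618-75100593, plus strand) was 47.7, 16.4, 214, 37.6, 16.7 and 9.41 CPM in WT, 1.66 to 7.44 in KO, 10.1, 6.66, 9.61, 34.1, 75.8 and 52.7 in the CP CML mice and 4.27 to 16.3 in the BC CML mice. Every KO library lay below every WT library, the 3 CP CML males lay above every BC CML library, and the 3 CP CML females lay within the BC CML range. Hmox1 fell by 3.46 ± 0.73 on the log2 scale in KO against WT (adjusted p = 6.46e-04), by 2.28 without WT replicate 3 (adjusted p = 0.00334) and by 2.10 without WT replicate 3 and KO replicate 3 together (adjusted p = 0.00843). It fell by 1.82 ± 0.68 in BC CML against CP CML (adjusted p = 0.0377), and by 1.84 without those 2 libraries (adjusted p = 0.00778). That call was lost without any 1 of 7 of the 12 libraries compared (CP CML replicates 4, 5 and 6 and BC CML replicates 1, 2, 4 and 6, adjusted p of 0.0526 to 0.126) and with sex in the model (adjusted p = 0.0524). In CP CML against WT the value was -0.81 ± 0.64 (adjusted p = 0.311) and turned to 0.38 without WT replicate 3. The study reports activation of HO-1 by NRF2 in BC CML against CP CML LSKs, where the fitted Hmox1 value here was negative.

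Macrophage markers moved with Hmox1. The sum over 10 of them (C1qa, C1qb, C1qc, Cd5l, Vcam1, Adgre1, Cd163, Mrc1, Spic and Slc40a1) was 74.6 to 1373 CPM in WT, 14.8 to 109.9 in KO, 86.9 to 616 in the CP CML mice and 55.5 to 240.4 in the BC CML mice, with none at 0 in any library. Of the 10, 8 fell in KO against WT and 3 fell in BC CML against CP CML, where 36.3% and 38.0% of all genes passed. Without WT replicate 3 and KO replicate 3 together 3 fell in KO against WT, and 6 fell and 1 rose in BC CML against CP CML, where 4716 and 5685 genes passed in all. Over the 24 libraries the deviations of Hmox1 and of this sum correlated with r = 0.96 (0.95 over the 22 without those libraries), and the genes nearest to Hmox1 were Kcnj10 (r = 0.98), Cd163 (r = 0.96), a scavenger receptor of macrophages that is itself in the list, and Clec4a3 (r = 0.96). The ratio of Hmox1 to the marker sum was 12.6% to 21.3% in WT, 4.85% to 11.2% in KO, 7.48% to 12.3% in the CP CML mice and 4.997% to 10.6% in the BC CML mice. The part of the macrophage markers in the Hmox1 result was not tested.

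**Figure D3:**
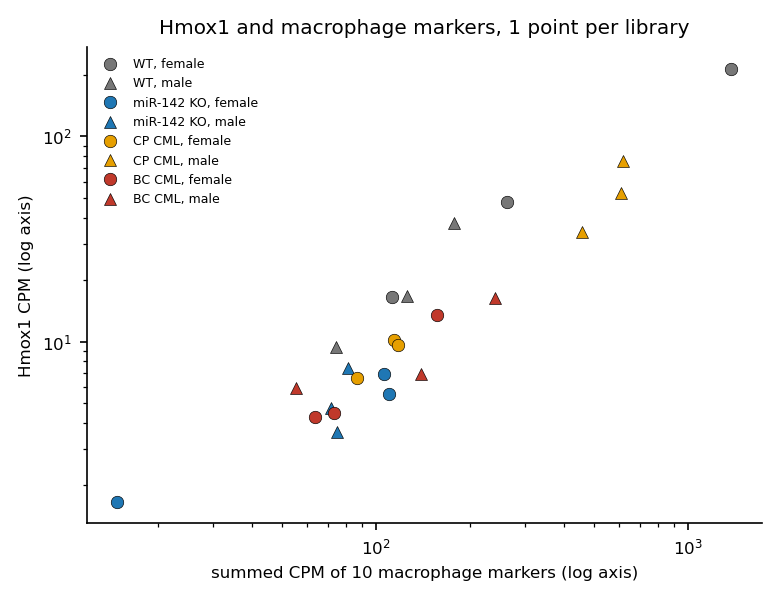
Hmox1 CPM against the summed CPM of 10 macrophage markers, both on log axes, with 1 point per library, colours for groups, circles for females and triangles for males. Libraries with more macrophage marker reads have more Hmox1, from KO replicate 3 (14.8 and 1.66 CPM) to WT replicate 3 (1373 and 214 CPM).

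Txnrd1 and Srxn1 serve the thioredoxin and peroxiredoxin systems. Thioredoxin reductase 1 recycles thioredoxin with NADPH, and sulfiredoxin repairs overoxidised peroxiredoxins. Txnrd1 (chr10:82833951-82897724, plus strand) had the highest level per length of the 10 genes, with values of 226 to 252 CPM in WT, 198 to 275 in KO, 264 to 285 in the CP CML mice and 231 to 253 in the BC CML mice. CP CML lay above WT and above BC CML in every library. Txnrd1 rose by 0.25 ± 0.07 on the log2 scale in CP CML against WT (adjusted p = 0.00339) and by 0.22 ± 0.07 in BC CML against KO (adjusted p = 0.00964), a call lost with the 12 libraries compared alone (adjusted p = 0.0564). In BC CML against CP CML the fitted value was -0.11 ± 0.07 (adjusted p = 0.193), from scaled libraries and a spread shared by all groups. It passed with upper quartile scaling, with library totals and with the 12 libraries alone. It also passed without KO replicate 3, which is in neither group (-0.13 ± 0.04, adjusted p = 0.00719). Without WT replicate 3 and KO replicate 3 together it passed as well (-0.13 ± 0.04, adjusted p = 0.00846). In KO against WT it was -0.08 ± 0.07 (adjusted p = 0.348), and -0.16 (adjusted p = 0.00162) without KO replicate 3, whose 275 CPM stood above the 198 to 212 CPM of the other KO libraries, and it passed with library totals too. Over the 24 libraries the Txnrd1 deviations correlated with those of the summed megakaryocyte markers at r = -0.65, whose part was not tested. With those of the summed erythroid markers r was -0.82. The value was -0.45 over the 23 without KO replicate 3, which had the highest Txnrd1 and the lowest erythroid sum of its group. That sum was 72.3 to 166 CPM in WT, 6.46 to 165 in KO, 14.4 to 54.1 in the CP CML mice and 2.81 to 8.56 in the BC CML mice, with at most 1 of its 8 markers at 0 in a library, and its part was not tested. Eid3, a short gene on the same strand, lies within the span of Txnrd1. Srxn1 (chr2:152105524-152111376, plus strand) had medians of 12.1, 11.7, 11.3 and 11.9 CPM in WT, KO, CP CML and BC CML, all groups overlapped, and its largest fitted difference among the 4 comparisons was 0.22 ± 0.10 in BC CML against KO (adjusted p = 0.0959).

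In plain CPM, 2 members did not overlap between BC CML and CP CML (Nfe2l2 higher, Txnrd1 lower), where 21.2% of all genes tested did not overlap. Between KO and WT 5 did not overlap (Nfe2l2, Gclm and Slc7a11 higher, Hmox1 and Nqo1 lower), against 14.3%. Between CP CML and WT 3 did not (Slc7a11 and Txnrd1 higher, Nqo1 lower), against 22.1%, and between BC CML and KO 3 did not (Nfe2l2 and Slc7a11 higher, Nqo1 lower), against 11.2%. On the length-scaled measure, RPKM (CPM per kilobase of the gene length given in the table), which allows genes to be compared, the mean level in WT ran from 60.2 for Txnrd1 through 36.8 for Gclm, 36.2 for Hmox1, 31.4 for Gclc, 31.2 for Nfe2l2, 18.9 for Keap1, 14.4 for Bach1, 4.69 for Nqo1 and 4.56 for Srxn1 to 0.0628 for Slc7a11. The Hmox1 mean rests on WT replicate 3, and its SD was 49.7 RPKM. In BC CML the order began with Txnrd1 (61.0), Gclm (51.1) and Nfe2l2 (42.6) and still ended with Slc7a11 (0.849). Within groups the members were weakly related. The highest correlations of deviations among the 45 pairs were those of Nfe2l2 with Slc7a11 (r = 0.54), Gclm with Slc7a11 (r = 0.52) and Nfe2l2 with Gclm (r = 0.46), over 24 libraries that share depth and cell makeup within each library, and the lowest was that of Nfe2l2 with Hmox1 (r = -0.46, and -0.64 over the 22 libraries without WT replicate 3 and KO replicate 3).

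Further targets of NRF2 were taken from a list of 45 genes, of which 39 could be tested. In BC CML against CP CML 15 rose and 5 fell, 51.3% of the 39 where 38.0% of all genes passed, and in KO against WT 12 rose and 4 fell, 41.0% where 36.3% of all genes passed. In CP CML against WT 20 rose and 4 fell, 24 of the 39 where 45.4% of all genes passed. In BC CML against KO 19 rose and 2 fell, 21 of the 39 where 39.6% of all genes passed. The medians of their log2 fold changes were 0.10, 0.09, 0.25 and 0.18, beside medians over all genes of 0.01, 0.01, -0.02 and -0.02. Of the 39, 12 passed in both BC CML against CP CML and KO against WT, all in 1 direction (9 rose and 3 fell), which is 60.0% of the 20 that passed in the former and 75.0% of the 16 in the latter. Among all genes tested 2919 passed in both, 56.8% and 59.5% of those that passed in each, and 2856 of these in 1 direction.

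Of 9 listed genes for thioredoxin and NADPH supply 5 rose in BC CML against CP CML and 5 in KO against WT, and none fell in either, which is 55.6% where 38.0% and 36.3% of all genes passed. Idh1, Pgd and Taldo1 rose in both. Idh1, which makes NADPH from isocitrate in the cytosol, had a lowest, median and highest value of 41.9, 53.2 and 72.5 CPM in WT, 82.4, 120.4 and 141 in KO, 67.3, 74.8 and 83.6 in CP CML, and 146, 171 and 176 in BC CML. Each miR-142 deficient group lay above its counterpart without overlap. Its log2 fold change was 1.23 ± 0.12 in BC CML against CP CML (adjusted p = 2.28e-08) and 1.16 ± 0.12 in KO against WT (adjusted p = 7.25e-08), and the difference between them, 0.07 ± 0.16, did not pass (adjusted p = 0.876). Pgd and Taldo1, enzymes of the pentose phosphate pathway, rose by 0.45 ± 0.09 and 0.32 ± 0.06 in the former and by 0.53 ± 0.09 and 0.42 ± 0.06 in the latter. Me1, the malic enzyme, rose in BC CML against CP CML (0.96 ± 0.25, adjusted p = 0.00370) and was -0.28 ± 0.24 in KO against WT (adjusted p = 0.372), at levels of 0.309 to 1.22 CPM over all groups, and Sesn2, a stress-induced sestrin, rose by 0.33 ± 0.13 (adjusted p = 0.0428).

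Of the 11 tested genes for glutathione use and export 5 rose and 3 fell in BC CML against CP CML, and 4 rose and 2 fell in KO against WT, which is 72.7% and 54.5% of them beside 38.0% and 36.3% of all genes. Gss, glutathione synthetase, rose by 0.26 ± 0.06 (adjusted p = 0.00280) in the former and was 0.14 ± 0.06 in the latter (adjusted p = 0.0878). Gstm1, a glutathione transferase, rose in both (0.60 ± 0.16 and 0.76 ± 0.16), while Gsta3 and Gsta4, transferases of the alpha class, fell in both (-1.11 ± 0.30 and -0.92 ± 0.30 for Gsta3, -0.62 ± 0.17 and -0.59 ± 0.16 for Gsta4). Members of these transferase families are near-identical in places, so their counts may be divided between copies. The exporter gene Abcc1 fell by 0.21 ± 0.05 in BC CML against CP CML (adjusted p = 0.00326). Among 7 genes of heme and iron handling 2 rose and 1 fell in BC CML against CP CML, and 1 rose and 1 fell in KO against WT (42.9% and 28.6%, where 38.0% and 36.3% of all genes passed). Abcb6, a porphyrin transporter, rose in both (0.62 ± 0.10 and 0.71 ± 0.10, adjusted p = 2.37e-05 and 4.82e-06), with 20.9 to 23.97 CPM in BC CML above the 12.4 to 17.7 CPM of CP CML. Ftl1, a ferritin chain, rose by 0.25 ± 0.10 and Fech, the last enzyme of heme synthesis, fell by 0.16 ± 0.06 in BC CML against CP CML. Slc40a1, the iron exporter and also 1 of the 10 macrophage markers, fell by 2.41 ± 0.69 in KO against WT (adjusted p = 0.00859), a call lost without WT replicate 3 (-1.28, adjusted p = 0.0824). Without WT replicate 3 and KO replicate 3 together 3 of the 7 genes rose and none fell in KO against WT, where 4716 genes passed in all. Of the 12 tested detoxification genes 3 rose and 1 fell in BC CML against CP CML, and 2 rose and 1 fell in KO against WT, in each a smaller share than the 38.0% and 36.3% of all genes. Ptgr1, a reductase of prostaglandins and enones, rose in both (0.88 ± 0.16 and 0.67 ± 0.16), and Aldh1a1, a retinal dehydrogenase, fell in both (-1.42 ± 0.45 and -1.54 ± 0.43). Slc6a9, a glycine transporter, rose by 0.71 in KO against WT (adjusted p = 0.0230) and was -0.16 in BC CML against CP CML (adjusted p = 0.624). Aldh3a1 had 10 to 35 reads a library in BC CML and 0 to 5 in CP CML (adjusted p = 0.00166). Of the 39 genes 3 passed the test of the difference between the miR-142 effects, which 3.99% of all genes passed. Me1 (1.24 ± 0.34) and Cbr1, a carbonyl reductase (0.35 ± 0.09), had a higher and Gsr, glutathione reductase (-0.71 ± 0.19), a lower effect in the leukemic mice. Gsr was named after its values were seen. It rose in both, by 0.39 ± 0.13 in BC CML against CP CML and by 1.10 ± 0.14 in KO against WT.

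**Figure D4:**
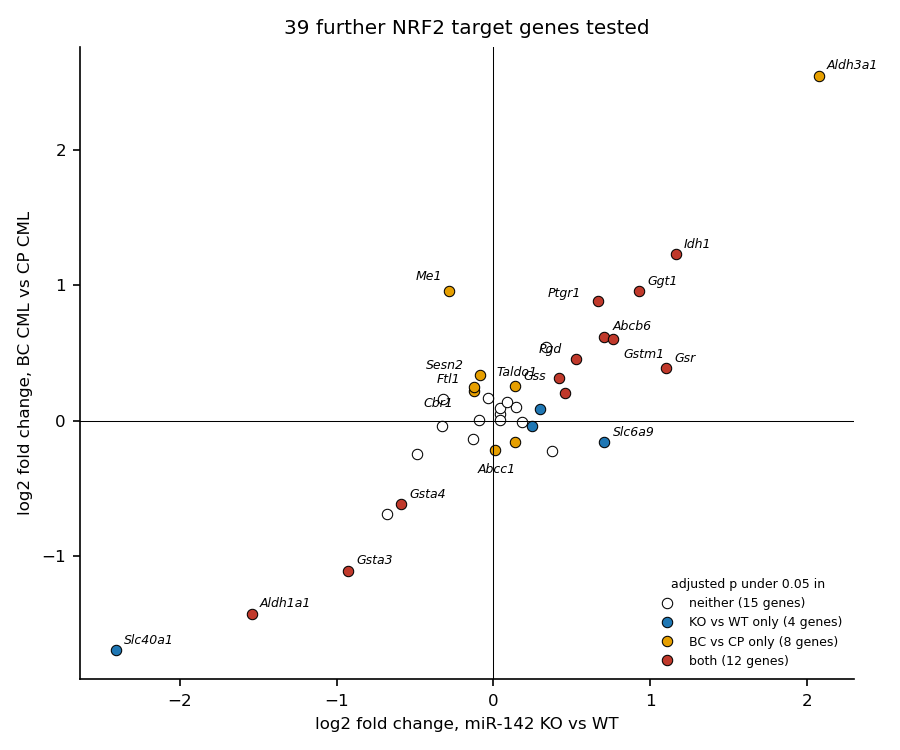
Log2 fold change in BC CML against CP CML plotted against that in miR-142 KO against WT for the 39 further NRF2 targets tested, with 1 point per gene coloured by the comparison in which it passed. The 12 red points passed in both and lie in the upper right or lower left part, with Idh1 at 1.16 and 1.23.

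Of 21 tested genes for partners of NRF2 and factors of its turnover 2 rose and 4 fell in BC CML against CP CML, and 4 rose and 2 fell in KO against WT, which is 28.6% in each, below the 38.0% and 36.3% of all genes. Rbx1, the RING subunit of the CUL3 ligase, rose in both (0.39 ± 0.06, adjusted p = 5.59e-05, and 0.27 ± 0.06, adjusted p = 0.00182). Crebbp, an acetyltransferase that serves NRF2 as a coactivator, and Bach2, a relative of Bach1, fell in both (-0.41 ± 0.08 and -0.29 ± 0.08 for Crebbp, -0.38 ± 0.09 and -0.44 ± 0.09 for Bach2). Chd6, a chromatin remodeller, fell by 0.35 ± 0.08 and Sqstm1, which encodes the p62 protein that draws KEAP1 into autophagy, rose by 0.28 ± 0.08 in BC CML against CP CML. Prkca, which encodes PKCα, the kinase placed upstream of NRF2 in the study, had a median of 65.6 CPM in WT, 87.5 in KO, 68.2 in the CP CML mice and 63.3 in the BC CML mice. It rose by 0.49 ± 0.09 in KO against WT (adjusted p = 2.04e-04) and was -0.02 ± 0.09 in BC CML against CP CML (adjusted p = 0.855), and the difference of the effects was -0.51 ± 0.13 (adjusted p = 0.0255). Its 3′ UTR of 6129 bases held 2 matches to the 5p seed and 0 to the 3p seed, and 49.0% of genes with 3′ UTRs of like length held the 5p match. Cpt1b, the carnitine palmitoyltransferase placed downstream of NRF2 in the study, had medians of 5.33, 5.37, 6.91 and 5.53 CPM in WT, KO, CP CML and BC CML, with log2 fold changes of -0.26 ± 0.12 in BC CML against CP CML (adjusted p = 0.0858) and 0.06 ± 0.12 in KO against WT (adjusted p = 0.731). Cpt1a, the other isoform named there, fell by 0.44 ± 0.08 in BC CML against CP CML (adjusted p = 2.99e-04) and was 0.01 ± 0.08 in KO against WT (adjusted p = 0.941). Of the remaining genes of this family, Cpt2, which acts on the inner mitochondrial membrane, rose in both (0.34 ± 0.08 and 0.21 ± 0.08, adjusted p = 0.00182 and 0.0405), and Cpt1c, at 0.0416 to 1.41 CPM over all groups, fell in both (-1.51 ± 0.34 and -1.54 ± 0.32). In BC CML against CP CML LSKs the study reports more NRF2, PKCα, CPT1A and CPT1B. It also reports more phosphorylated and nuclear NRF2, less NRF2 ubiquitination, higher CPT1B mRNA and more NRF2 at the CPT1B promoter. The Prkca, Cpt1a and Cpt1b mRNA measured here did not rise in that comparison, and Nfe2l2 mRNA rose 1.33-fold. The values here are mRNA levels in sorted cells, and the amounts of the proteins were not part of the data analysed.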

How the data were processed

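Bulk RNA-seq of LSKs was analysed from the table of read counts deposited by the authors, which holds raw counts per gene for 24 libraries. According to the labels and the study's methods, poly(A) libraries (Kapa mRNA HyperPrep, paired reads on a NovaSeq) were trimmed with Trimmomatic, aligned to mm10 with STAR 2.6.0 and counted with HTSeq 0.11.1. The annotation and the strand setting are not given in the sources used here. Groups and sexes were taken from the labels, and mice were numbered within groups in label order. Genes were filtered by edgeR's filterByExpr, scaled by TMM and tested by its quasi-likelihood test (edgeR 4.0.16, R 4.3.3) in 1 fit of 24 libraries, with Benjamini-Hochberg adjustment over 13520 genes and a threshold of 0.05. The script was checked on simulated counts. The SE of a log2 fold change was derived from the test, as its absolute value divided by the square root of the quasi-likelihood F statistic. Levels are CPM of library totals, log2 CPM used a prior count of 2, and deviations were taken from group means. Those of each member were correlated with the macrophage, erythroid, neutrophil, B lineage, mast cell and megakaryocyte sums. The text gives the strongest for the genes where a sum is named, and 1 more for Nqo1 and Txnrd1. Left out were Hmox1 with erythroid markers (r = 0.49) and Srxn1 with mast cell (r = -0.53) and B lineage markers (r = -0.50), among others. Alternatives were edgeR's likelihood ratio test, DESeq2 1.42.0, RLE and upper quartile scaling, other filters, sex as a covariate, the 12 libraries compared alone, leaving out each library and, added after the data were seen, library totals without TMM and the loss of WT replicate 3 and KO replicate 3 together. The members and lists were chosen with earlier results of these data known. Named genes were the members, the genes named in the study (Prkca, Cpt1a, Cpt1b), up to 5 genes of each other list that passed in BC CML against CP CML or KO against WT, by smallest p in the former, and the 3 genes nearest to Nfe2l2, Nqo1 and Hmox1. Counting error covers only part of the spread. The p-values weigh a difference between groups against the spread between mice within groups, which the main fit estimates over all 24 libraries.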

Additional observations from a re-analysis of the deposited data

Results flagged for a closer look

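Of 40 sets of 6 libraries (10 genes in 4 groups), 4 held a library whose gap to the nearest other, as a share of the range of the group, exceeded the critical value of Dixon's test for 6 samples, where chance gives about 1 in 20. They were Hmox1 in WT replicate 3 (gap share 0.812, 214 CPM with the next library at 47.7), Txnrd1 in miR-142 KO replicate 3 (0.823, 275 and 212 CPM), Slc7a11 in CP CML replicate 2 (0.738, 6.62 and 3.70 CPM) and Srxn1 in BC CML replicate 5 (0.659, 15.3 and 12.7 CPM). The miR-142 effect on Gclc differed between leukemic and non-leukemic mice by the test of the difference itself (log2 -0.40, adjusted p = 0.00449).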

How the results depend on the processing

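Nfe2l2, Gclm and Slc7a11 kept their direction and their calls in BC CML against CP CML and in miR-142 KO against WT under every alternative run. The number of members that passed stayed between 4 and 7 in BC CML against CP CML, 6 and 8 in KO against WT, 4 and 6 in CP CML against WT, and 6 and 7 in BC CML against KO. For the difference between the miR-142 effects the number was 1 or 2 with a library left out, 2 being without miR-142 KO replicate 3, where Bach1 also passed (-0.27, adjusted p = 0.0488). With DESeq2 891 genes passed that test instead of 539. Keap1 changed sign where its value was near 0, in BC CML against KO (0.03) with upper quartile scaling (-0.0096) and library totals (-0.027) and in CP CML against WT (-0.00) with a filter of 1 CPM in 6 samples (0.0057). With single libraries left out it ranged from -0.015 to 0.022 in CP CML against WT and from -0.011 to 0.041 for the difference between the effects. Without WT replicate 3 and miR-142 KO replicate 3 together, chosen after seeing the data, 988 genes passed the test of the difference between the effects, Keap1 was 0.0075 in CP CML against WT and -0.0066 for that difference, Hmox1 was 0.38 in CP CML against WT and Txnrd1 0.036 for that difference. With 1 library left out, Hmox1 in CP CML against WT ranged from -1.27 to 0.38, the latter without WT replicate 3, and Txnrd1 for the difference between the effects from -0.079 to 0.038. In the comparison over all genes, upper quartile scaling moved the share of passing genes that rose from 53.7% to 42.4% in BC CML against CP CML and from 54.7% to 42.0% in KO against WT, and library totals moved it to 37.9% and 37.5%, and from 49.6% to 38.7% in CP CML against WT and from 51.3% to 39.6% in BC CML against KO. No paired analysis was possible because the mouse numbers in the labels pair no samples. Depth limits Slc7a11 in WT and Nqo1 in BC CML, where libraries held as few as 8 and 37 reads.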
